A study of Mus musculus with 8 samples.

Results

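Among 3605 droplets of a newborn cortical thymic epithelial cell (cTEC) library, 135 carried a clear load of thymocyte transcripts. They are the droplets with 6 or more unique molecular identifiers (UMIs, each a counted RNA molecule) summed over Cd3d, Cd3e, Cd3g, Cd8a, Cd8b1, Rag1, Dntt and Lck. Before the rule was applied, droplets over 5% in mitochondrial UMIs or over 5000 in detected genes were dropped. The 135 droplets made up 3.74% of the newborn droplets (exact 95% interval 3.15 to 4.42%, counting error only) and stand among 25750 droplets of 8 libraries. The members were chosen by measured thymocyte genes, so differences in those genes are a description of the choice and support nothing. Of the 8 genes, 7 count among the 136 called higher below. The library is 1 sample, its droplets are not replicates, and every interval given below covers counting error only.

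The study profiled wild-type thymic epithelium of C57 B6 (CD45.2) mice across development with a droplet 3' RNA assay. The NB library held newborn cells (0 to 2 days of age, of either sex per the methods of the study) gated as DAPI- EpCAM+ CD45- Ly51+ UEA-1-, so cells with surface CD45, the pan-leukocyte protein, were gated out. E15.5, E17.5 and adult cTEC were gated alike, adult mTEC by the converse of Ly51 and UEA-1, and E13.5 as total epithelium, EpCAM+ and CD45-. Libraries of the age series were single captures except for 2 each of adult cTEC and adult mTEC, and how many animals went into the newborn library is not given in the sources used here. Median depth ranged from 3996 to 11386 UMIs per droplet between libraries, and was 6133 in the newborn library.

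Cortical epithelial cells support thymocytes through the stage at which they carry both CD4 and CD8 and test their first T cell receptors. Some cTEC enclose living thymocytes within their own membrane. These thymic nurse complexes are known to hold mostly CD4+ CD8+ thymocytes. In a droplet assay, a nurse complex, a cTEC with thymocytes stuck to it and a chance pair of cells in 1 droplet would all give both kinds of RNA, and these data cannot tell them apart. No doublet caller was run, and all droplets that met the rule were kept.

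The thymocyte RNA of the 135 droplets came from all 8 rule genes. Their summed rule UMIs ran from 6 to 52, with a median of 11. Cd3g, a chain of the CD3 complex that carries the T cell receptor signal, had 349 UMIs and was seen in 112 of 135 members. Its fellow chain Cd3d had 258 UMIs in 110 members. Rag1, which cuts the receptor genes for rearrangement, had 189 UMIs in 88 members. The coreceptor chain Cd8b1 was seen in 96 members and Cd8a in 77. Dntt, which adds bases at receptor joints, was the least often seen, in 35 members. Lck, the kinase bound to the coreceptors, had 346 UMIs in 115 members. Cd3g lies on chromosome 9 at 44969572 to 44980431 and Rag1 on chromosome 2 at 101638282 to 101649501 (mm10, GENCODE annotation).

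The other 3470 newborn droplets were nearly free of this RNA, and those with 1 or 2 rule UMIs held another mix. Of these, 3157 had no rule UMI, 261 had 1, 18 had 2 and 34 had 3 to 5. Lck alone made up 56.6% of the rule UMIs of the others, against 20.4% in the members. Among the others its share was 70.1% at 1 rule UMI and 77.8% at 2, but 25% in the 34 droplets with 3 to 5. At E13.5, where no droplet met the rule, Lck made up 98.0% of the rule UMIs (96 of 98). The 8 genes were therefore not in 1 ratio in members and others, and Lck UMIs were found where other thymocyte UMIs were few.

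The limit of 6 UMIs did not fall in a gap. Just outside it were 22 droplets with 4 or 5 rule UMIs and just inside 27 with 6 or 7. The outer droplets had a median of 8114 UMIs and the inner ones 8257. T lineage genes that the rule did not use gave medians of 8.5 and 8 UMIs per droplet. Psmb11 and Prss16 together gave medians of 5270 and 5822 CPM (UMI counts scaled to a total of 1000000). By these measures the droplets on both sides of the limit looked alike, so 135 is a count at a chosen cut. A break lay lower. Summed T lineage RNA outside the rule was 198 CPM in the 18 droplets with 2 rule UMIs and 1141 CPM in the 34 droplets with 3 to 5.

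**Figure D1:**
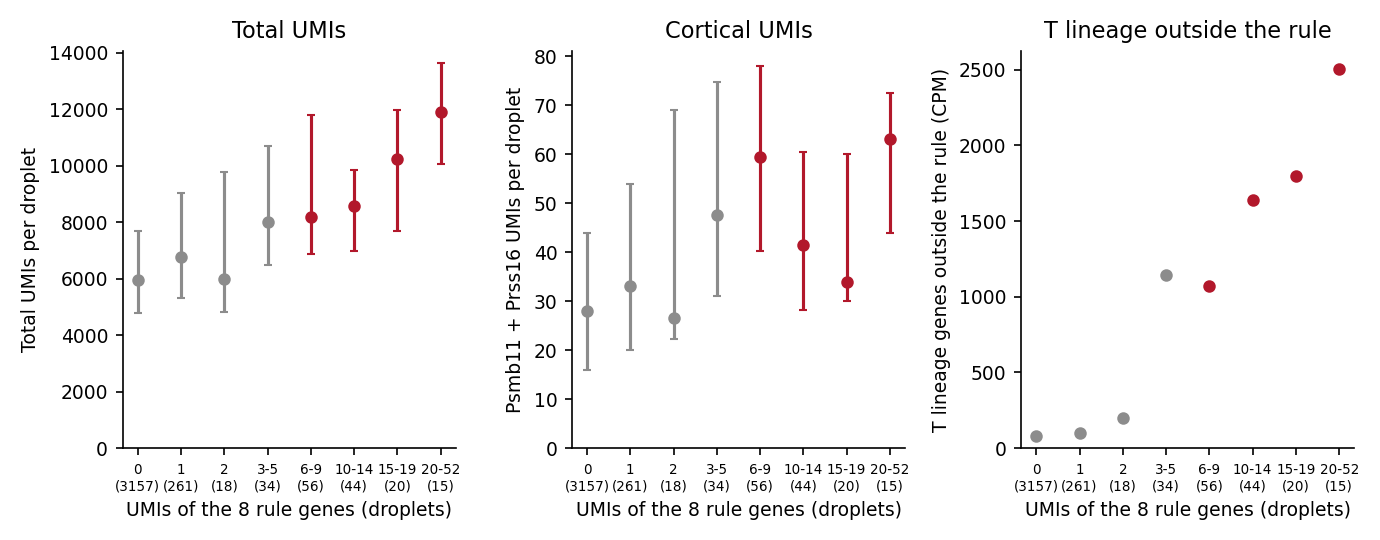
Newborn droplets by the UMIs of the 8 rule genes (numbers of droplets in brackets). Points in the first 2 panels are medians and bars run from the lower to the upper quartile over droplets; the third panel is summed CPM. Red points meet the rule. Total UMIs climb from a median of 5966 with no rule UMI to 11914 with 20 to 52, and the T lineage level steps up between 2 and 3 to 5 rule UMIs.

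The thymocyte label was checked on other T lineage genes. Of 22 such genes listed, 19 were in the gene table and 14 had the 50 UMIs required over the newborn droplets. Of those, 12 were at least 2-fold higher in the members and none was lower, on the log2(CPM + 10) scale. Of the 14, 5 reached 50 UMIs only with the UMIs of the members, so that being high there helped them pass. The other 9 had 50 UMIs in the other droplets alone, and 7 of them were higher. Over all 11298 genes tested, 136 (1.2%) were higher by that measure and 5 (0.0443%) lower, and the median log2 ratio was near 0 (-0.0019). Of the 136, 7 were rule genes and 129 lay outside the rule. Over the 11162 genes with 50 UMIs in the other droplets alone, 95 (0.851%) were higher. The summed T lineage level was 1547 CPM in members and 96.8 CPM in the others. Every member had at least 1 of these UMIs and 134 of 135 had 3 or more, while 4.01% of the others had 3 or more. With each droplet thinned to 2000 UMIs, 91.1% of members (interval 84.99 to 95.3%) and 15.8% of the others (14.6 to 17.1%) kept at least 1. The constant regions of the T cell receptor chains were not analysed here.

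Several of the genes with the highest ratios serve receptor signalling, a grouping made from these ratios that was not tested. Lat, Rhoh and Skap1 reached 50 UMIs only with the UMIs of the members. Lat, the adaptor that links the receptor to its downstream pathways, had 213 UMIs in 93 members and 34 UMIs in the 3470 others. Its level was 164 CPM against 1.45 CPM, a log2 ratio of 3.93. Rhoh, a GTPase needed for receptor signalling, stood at 156 against 1.92 CPM. The adaptors Skap1 and Fyb, which join the receptor to integrin adhesion, had log2 ratios of 2.99 and 2.98, and the costimulatory receptor Cd28 had 2.92. Zap70, the kinase that binds the phosphorylated receptor, had only 25 UMIs in 20 members and 3 UMIs in the others, too few for the 50 UMI minimum.

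T lineage transcription factors were seen in 26 to 110 of the members. Satb1, an organiser of thymocyte chromatin, was seen in 110 of 135 members (196 against 12.9 CPM) and Tcf7, an early T lineage factor, in 97 (166 against 2.90 CPM). Bcl11b, which holds cells to the T lineage, had a log2 ratio of 2.44 and Lef1, the partner of Tcf7, 2.29, the latter seen in 54 members. Gata3, a factor of T commitment and the CD4 fate, had 0.95 and missed the 2-fold mark, with UMIs in 26 members. The phosphatase gene Ptpn22 had 0.17 and was seen in 17.49% of the other droplets.

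Genes common to white blood cells were also among those with the highest ratios, in spite of the CD45- gate. This grouping too was made from the ratios and was not tested. The UMI minimum was reached by Ptprc, Ptprcap, Rac2 and Thy1 only with the UMIs of the members, so that being high there helped them pass. Ptprc, which encodes CD45 itself, was seen in 66 of 135 members and in 22 of 3470 others. Its level was 83.2 CPM (68.2 to 100) in members and 1.32 CPM (0.898 to 1.88) in others. Ptprcap, a CD45 partner, stood at 111 against 0.981 CPM. The actin regulators Coro1a, Gmfg and Rac2 of blood cells had log2 ratios of 3.73, 3.76 and 3.48. Thy1, the surface protein of mouse T cells, had 3.35 and Ramp1, a receptor-modifying protein, 3.02. The signal of the 15 genes with the highest ratios was spread over many droplets. For each of them, the 5 richest members held from 12.99 to 24.3% of its UMIs, and no member held more than 7 UMIs of Ptprc.

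**Figure D2:**
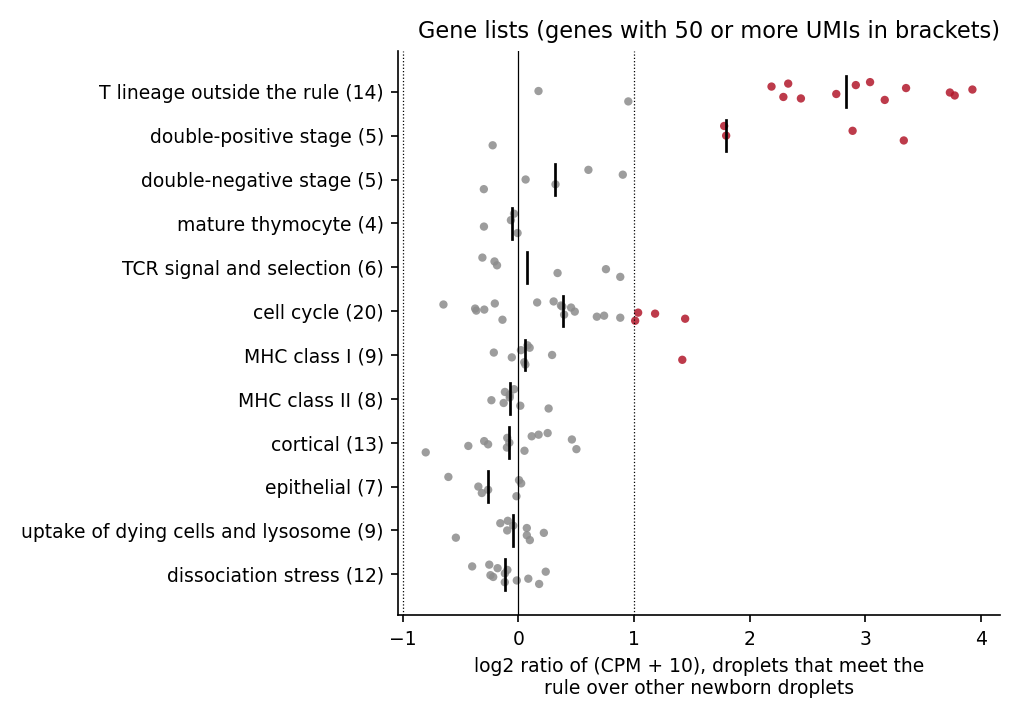
Log2 ratio of CPM + 10 in the 135 droplets over the other 3470, 1 point per gene with 50 or more UMIs, by gene list. Black bars are list medians, dotted lines mark 2-fold, and red points are at least 2-fold higher. T lineage genes (12 of 14) and double-positive genes (4 of 5) lie past the line, though 5 and 4 of these reached 50 UMIs only through the members. No cortical, epithelial or MHC class II gene lies past it.

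Stage genes of CD4+ CD8+ thymocytes were found in the members, of which 88.1% had a UMI of this list, against 15.8% of the others. After thinning to 2000 UMIs the shares were 47.4% (38.8 to 56.2%) and 5.76% (5.01 to 6.59%). Of 8 such double-positive genes 5 were tested, of which 4 were higher. These 4 reached 50 UMIs only with the UMIs of the members, so that their number supports nothing. Arpp21, a cAMP-regulated phosphoprotein abundant at this stage, had 134 UMIs in 76 members (103 against 1.24 CPM). Ccr9, the receptor for the cortical chemokine Ccl25, had 89 UMIs in 49 members (68.6 against 0.597 CPM). Themis, a regulator of receptor signal strength in selection, and Cd4 had log2 ratios of 1.80 and 1.78. Cd1d1, which presents lipids, had -0.22 and was seen in 16.3% of members and 14.3% of others. Rag2, the partner of Rag1, had 18 UMIs against 2 in the others, too few to test.

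Co-detection of the coreceptors was thin, and the Cd8 chains and Rag1 are rule genes, so these counts are a description of the choice. Cd8a or Cd8b1 was seen in 113 members, Cd4 in 29 and both in 25, with neither in 18. Rag1 or Rag2 was seen in 92 members, 79 of them with a Cd8 chain. At a mean of 0.259 Cd4 UMIs per member, a member without a Cd4 UMI could not be called CD4-.

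On the log2(CPM + 10) scale no tested gene of an earlier or later stage reached 2-fold. The 5 double-negative genes tested had a median log2 ratio of 0.32. Notch1, the receptor that starts the T lineage, had 0.90 and Il2ra (CD25) 0.61. Without the pseudocount their CPM ratios were 2.37 (1.75 to 3.17) and 2.24 (1.35 to 3.54), past 2-fold. Ptcra, which pairs with the first receptor chain, had 28 UMIs in 19 members against 15 UMIs in all others, but too few in total to test. Kit, a receptor of the earliest progenitors, had no UMI in the members, where a count of 3 would be 2.31 CPM. None of 4 tested genes of mature thymocytes was higher on that scale (median -0.05), and none of 6 genes of receptor signal and selection was (0.08). Of these 6, Bcl2l11, which promotes cell death in selection, and Ikzf2, an Ikaros family factor, were past 2-fold without the pseudocount, at 2.32 (1.56 to 3.34) and 2.20 (1.68 to 2.84). Cd69 and Pdcd1, raised by receptor engagement, had 1 UMI each over all 135 members. Ccr7 and Il7r, of selected cells, had 5 and 2.

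A pair of genes outside these lists are named because of their values, after these were seen. Gzma, the protease granzyme A of killer lymphocytes, had 56 UMIs in 24 members and 7 UMIs in the others (43.1 against 0.299 CPM). Itm2a, a membrane protein of activated thymocytes, had 106 UMIs in 17 members, of which 1 droplet held 54 and 2 droplets held 82. Its level of 81.6 CPM, against 10.4 CPM in the others, thus rested mostly on 2 droplets.

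Markers of other cell types were few in the whole library. With 50 UMIs required, 1 B cell, 1 myeloid, 1 endothelial and 2 mesenchymal genes could be tested, none was 2-fold higher, and no erythroid or parathyroid gene could be tested. Ms4a1 and Cd79a of B cells, Cdh5 and Kdr of endothelium, and Col1a1, Col1a2 and Col3a1 of mesenchyme had no UMI in the members, but at most 39 UMIs each in the 3470 others, so that few or none would be seen in 135 droplets at the same level. Some other genes of these lists were seen. Cd79b, a B cell receptor chain, had 10 UMIs in 10 members and 8 UMIs in the others. Ebf1 had 25 UMIs in 19 members and Dcn, a matrix proteoglycan, 20 in 17, both at a lower CPM than in the others. Any B cell list UMI was seen in 20.7% of members and 19.05% of others, and any mesenchymal one in 15.6 and 16.3%. After thinning to 2000 UMIs the B cell shares were 6.67 and 8.44% and the mesenchymal ones 2.22 and 7.15%, and the mesenchymal list had a CPM ratio of 0.473 (0.313 to 0.688). The summed myeloid and dendritic list gave 12 UMIs over the 135 members, in 7 of them. The endothelial list stood at 23.1 against 11.9 CPM, in the members all from Pecam1, which blood cells also express, with 30 UMIs in 26 members.

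Most of the 135 droplets also held RNA of the 2 genes used as a sign of cortical epithelium. Psmb11, on chromosome 14 at 54621433 to 54629556, encodes the proteasome subunit that only cortical epithelium makes. Prss16, on chromosome 13 at 22002173 to 22009742, encodes a protease for class II peptides. At least 1 UMI of either was found in 132 of 135 members (97.8%, 93.6 to 99.5%) and in 99.6% of the others (99.4 to 99.8%). After thinning to 2000 UMIs the shares were 97.0% (92.6 to 99.2%) and 98.2% (97.7 to 98.6%), and no droplet was too shallow. The members held from 0 to 156 UMIs of the pair with a median of 52, against a median of 28 in the others. As CPM the medians were 5288 and 4650. Of 135 members, 113 lay between the 5th and 95th percentiles of the others (1093 and 9582 CPM), 7 below and 15 above. The cortical levels of members and others thus overlapped.

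**Figure D3:**
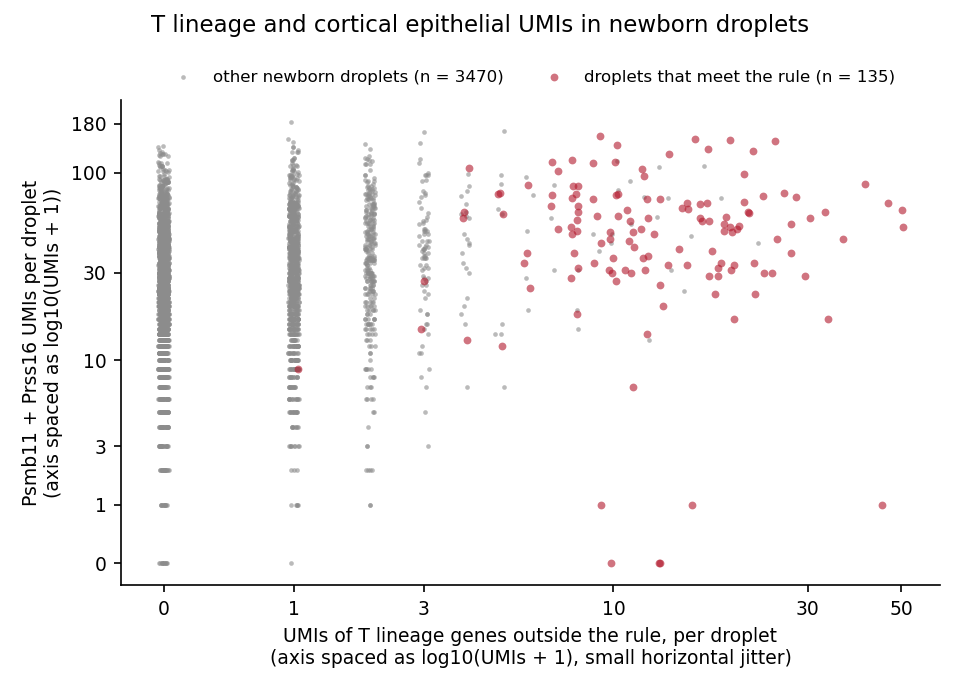
Each point is 1 newborn droplet, with UMIs of T lineage genes outside the rule on the x axis and Psmb11 plus Prss16 UMIs on the y axis, both spaced as log10(UMIs + 1). The 135 droplets that meet the rule (red) sit to the right of most others (grey). They overlap the others in cortical UMIs with a higher median (52 against 28), and 6 of them have 0 or 1.

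The members held more UMIs than the other droplets. A limit on summed UMIs favours deep droplets, and its part in this difference was not tested. The median member held 8737 UMIs and 3111 genes, against 6032.5 UMIs and 2382.5 genes in the others. Its quartiles of 7287 and 11807 UMIs were set against 4826 and 7830. UMIs of 23 epithelial and cortical genes had a median of 460 in members and 282 in others. Of the members, 120 had more UMIs than the median other droplet, and 118 more epithelial and cortical UMIs. The T lineage and rule genes together were a mean of 14.9 and 12.5 UMIs per member, and the UMIs outside all these lists had a median of 8276 against 5740.5, so most of the surplus lay outside them. Within 7287 to 11807 UMIs, the quartiles of the members and a range chosen after the data were seen, 67 members and 826 others had like depth (medians of 8737 and 8526.5 UMIs). Their cortical medians were 51 and 45 UMIs, and 485 and 450 for the 23 genes.

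Thymocyte and cortical RNA were also compared within the members. Over the 135 members, rule UMIs and T lineage UMIs outside the rule had a Pearson r of 0.71 (Spearman rho 0.63). Rule UMIs and Psmb11 plus Prss16 UMIs had r = -0.05 (rho -0.14). On the CPM scale, T lineage and cortical levels had r = -0.32. These values are descriptions over droplets of 1 library, which share its depth and free RNA, and CPM values share a total. The rule UMIs start at 6 by the choice of members. Median mitochondrial share was 1.305% in members and 1.55% in others, and ribosomal protein genes took 14.9% and 15.3% of UMIs.

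A small group of members had thymocyte RNA and almost no epithelium. With a limit at 0.1 of the median of the others (465 CPM of Psmb11 plus Prss16), 6 members were low and 129 were not, and 1 member lay within a factor of 2 of the limit. The low members held 0 or 1 UMI of the pair. They had a median of 3766 UMIs and 1513.5 genes, against 8890 and 3146 in the 129. Their T lineage UMIs outside the rule were similar per droplet, with medians of 13 and 12. As a share of their fewer UMIs these were higher, at 3869 against 1498 CPM. Krt8 and Krt18, the keratins of simple epithelium, summed to 479 CPM in the low members and 18313 CPM in the rest. Tbata, Psmb11, Crip3 and Gas6 had no UMI in the 6, and Cd74, the class II invariant chain, had 1. On the other side, Plac8 and the cycle genes Mxd3, Neil3 and Nusap1 had the highest ratios, with 8, 8, 5 and 7 UMIs, and Myl4 had 3. No more than 3 of the 6 droplets carried any of these 5. By contrast, 47 of the 3470 other droplets were equally low in the cortical pair, and their Krt8 plus Krt18 level was 6067 CPM.

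The cortical and epithelial programme was present as a whole. All 13 cortical genes were tested and none differed by 2-fold, with a median log2 ratio of -0.08. None of 7 epithelial genes did either (-0.26). Within that range the genes did not move together. Cldn4, an epithelial list gene with too few UMIs to test, had 11 UMIs in 9 members and 12 UMIs in the others. Its CPM ratio was 16.6 (6.62 to 41.0). Each tested gene was also put per 1000 UMIs of the other epithelial and cortical genes. The cortical list stood at 34510 CPM in members and 29480 CPM in others, and the epithelial list at 18721 and 18746 CPM. The reference sum thus took no smaller share of UMIs in members. Ratios over it fell below the CPM ratios, for Epcam 0.587 against 0.651. Tbata, a cTEC gene linked to epithelial proliferation, was 1.32-fold higher over this sum (1.29 to 1.35). Ccl25, which attracts thymocytes through Ccr9, was 1.28-fold higher (1.25 to 1.31). Psmb11 had a ratio of 1.08 (1.04 to 1.13) and Prss16 1.02 (0.997 to 1.05).

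By this measure the ratios were mostly below 1, with medians of 0.849 over the 13 cortical and 0.740 over the 7 epithelial genes, and several support genes were among the lower ones. Ackr4, a scavenger of Ccl25 and related chemokines, had a ratio of 0.480 (0.371 to 0.611). Kitl, the growth factor of early progenitors, had 0.642 (0.505 to 0.807), Cxcl12, a chemokine of early thymocytes, 0.732 (0.685 to 0.782) and Il7, their survival factor, 0.749 (0.665 to 0.840). Dll4, the Notch ligand of the cortex, had 0.849 (0.654 to 1.09). Epcam, the surface protein of the sort gate, was 0.587 (0.536 to 0.642) and Foxn1, the master factor of thymic epithelium, 0.740 (0.602 to 0.9005). The directions of Tbata, Ccl25, Ackr4, Kitl, Cxcl12, Il7 and Epcam were the same at like depth. Within 7287 to 11807 UMIs the ratios were 1.21 for Tbata and 1.22 for Ccl25, and 0.422, 0.663, 0.808, 0.727 and 0.697 for the other 5 in that order, with every interval clear of 1. Psmb11 then had 0.966 (0.902 to 1.03) and Prss16 0.992 (0.952 to 1.03), and the interval of Foxn1 reached past 1 (0.831, 0.615 to 1.10). On the receptor side, Ccr9 had 89 UMIs and Notch1, the receptor of Dll4, 53 UMIs in 38 members (40.8 against 17.2 CPM). Cxcr4, the Cxcl12 receptor, had 5 UMIs, and Il7r and Kit had 2 and none.

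**Figure D4:**
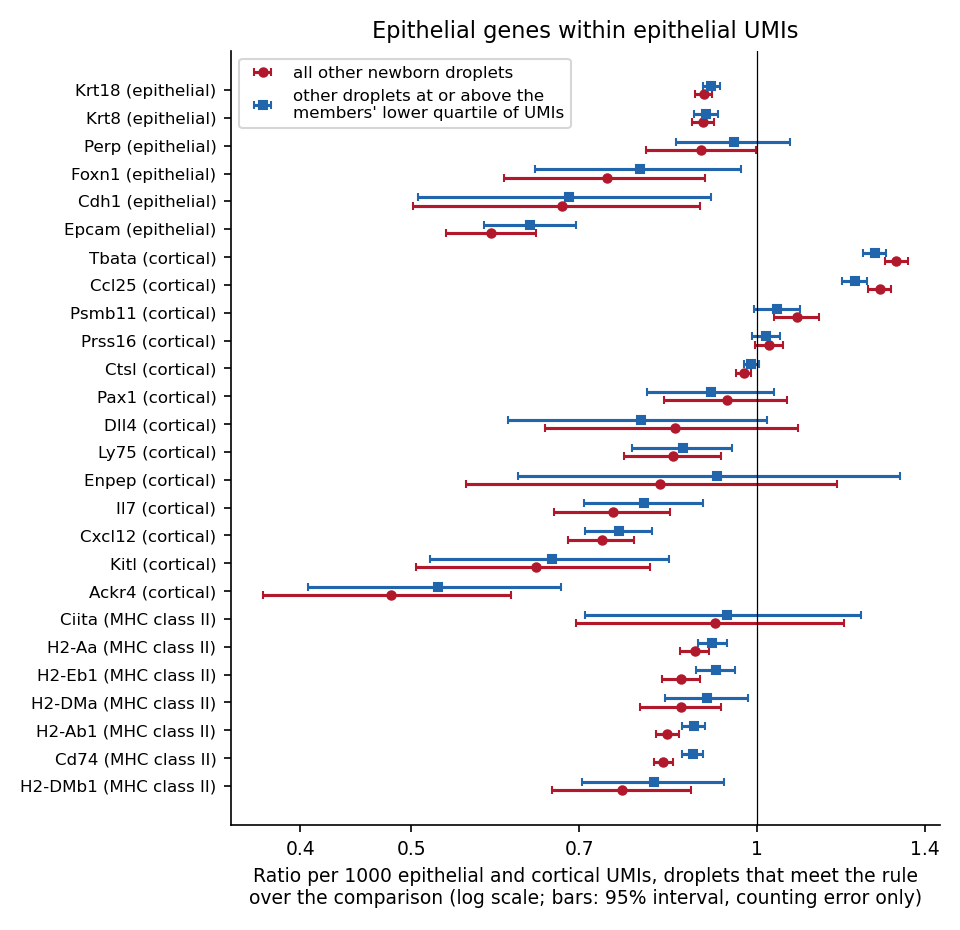
Ratio of each gene per 1000 UMIs of the other epithelial and cortical genes (x axis, log scale) in the 135 droplets over all other newborn droplets (red) and over the 1085 with at least 7287 UMIs (blue, median 9265 UMIs against 8737 in the members), with 95% intervals for counting error. Genes with 20 or more UMIs in the members are drawn. Tbata and Ccl25 lie to the right of 1 in both comparisons, and Epcam, Cxcl12, Kitl, Il7 and Ackr4 to the left.

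Antigen presentation genes showed 1 exception. None of 8 class II genes differed by 2-fold. Per 1000 epithelial UMIs, 6 of the 8 had intervals below 1, as had 6 of 7 epithelial, 6 of 13 cortical and 5 of 9 class I genes. As CPM against the 1085 others with at least 7287 UMIs, 2 class II genes (H2-Ab1 and Cd74) and no class I gene had intervals below 1, and H2-K1, H2-D1 and B2m were above it at 1.105 (1.04 to 1.17), 1.12 (1.07 to 1.18) and 1.104 (1.06 to 1.15). Per 1000 epithelial UMIs against all others, Cd74 stood at 0.829 (0.813 to 0.845) and H2-Aa at 0.882 (0.857 to 0.908). Of 9 class I genes, Psmb8 alone was 2-fold higher, at 199 against 68.2 CPM (log2 ratio 1.42). Psmb8, on chromosome 17 at 34197721 to 34201454, encodes an immunoproteasome subunit that takes the place which Psmb11 fills in cortical epithelium. It was seen in 89 of 135 members and 31.1% of the others, and in 25.2% (18.1 to 33.4%) and 11.99% (10.9 to 13.1%) after thinning. The immunoproteasome subunits Psmb9 and Psmb10 had log2 ratios of 0.05 and 0.06. None of 9 genes of uptake of dying cells and lysosomes differed by 2-fold, and none of 12 genes of dissociation stress did. None of 6 medullary genes did either, with Krt5 at 97.0 against 86.6 CPM.

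Cell cycle genes were higher in part. Of 20 genes, 4 were at least 2-fold higher, namely Rrm2 (1.44), Mcm3 (1.18), Mcm2 (1.04) and Ung (1.01), which serve DNA synthesis and repair. Over all genes tested 1.2% were higher. Against the 1085 others with at least 7287 UMIs none of the 20 reached 2-fold on the log2(CPM + 10) scale, and Rrm2, Mcm3, Mcm2 and Ung had 0.99, 0.81, 0.75 and 0.78. Without the pseudocount their CPM ratios there were 2.20, 2.02, 2.03 and 2.35. The 10 genes of DNA synthesis summed to 521 CPM in members and 253 CPM in others, a ratio of 2.06 (1.90 to 2.23). The 10 genes of mitosis had a ratio of 0.997 (0.925 to 1.07). This division of the list was made after the values were seen. Within 7287 to 11807 UMIs the ratios were 1.63 (1.45 to 1.82) and 0.651 (0.580 to 0.729). By droplets, 61 of 135 members (45.2%) had 5 or more cell cycle UMIs, against 16.3% of all others. Within 7287 to 11807 UMIs the shares were 44.8% (32.6 to 57.4%) and 26.03% (23.1 to 29.2%). At 2000 UMIs the shares were 16.3% (10.5 to 23.6%) and 8.90% (7.98 to 9.90%). The thinned result depended on the cut. With 3 or more cell cycle UMIs the shares were 34.8% (26.8 to 43.5%) and 12.2% (11.1 to 13.3%). With 10 or more they were 5.93% (2.59 to 11.3%) and 4.70% (4.02 to 5.45%), and these intervals overlapped. Which of the cells in a droplet was cycling cannot be told apart.

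Few genes were low on this scale, and their number rests on the pseudocount. It went from 5 with 10 CPM to 362 with 1 CPM, where 308 genes were higher, and to 25 when members needed 10 rule UMIs. The 5 below the 2-fold mark were Fabp4, a fatty acid carrier, Gm26802, Ly6h, Wdr60, a dynein subunit, and Ppm1n, a phosphatase. Fabp4 had 5 UMIs in members and 644 in the others, in 126 of which it was seen. Its share of droplets was 2.96% against 3.63%, and 71.9% of its UMIs in the others lay in 10 droplets (log2 ratio -1.44). Ly6h was more widespread, with 37 UMIs in 24 members and a share of 29.97% of the others (28.5 against 78.9 CPM). Sparc and Ptn, secreted matrix-associated proteins, had log2 ratios of -0.99 each, just short of the mark. Fbln1, Ebf1 and Myh10, with -0.96, -0.96 and -0.95, completed the 10 lowest.

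RNA of both sexes in a droplet can come from cells of more than 1 animal or from free RNA of the library. Which of these applied was not tested. Xist is transcribed in female cells, and Ddx3y, Eif2s3y, Uty and Kdm5d lie on the Y chromosome. Xist was seen in 74.1% of members and 74.4% of the others, and a Y-linked UMI in 27.4% and 15.8%. Both were seen in 12 of 135 members (8.89%, 4.68 to 15.01%) and 102 of 3470 others (2.94%, 2.40 to 3.56%). Depth moved with this share. Within 7287 to 11807 UMIs both were seen in 4 of 67 members (5.97%, 1.65 to 14.6%) and 34 of 826 others (4.12%, 2.87 to 5.70%). With 2 or more UMIs asked of each there, the counts were 2 of 67 (2.99%, 0.364 to 10.4%) and 8 of 826 (0.969%, 0.419 to 1.90%). These intervals overlapped. Over all droplets and 2 or more UMIs of each, the counts were 9 of 135 (6.67%, 3.09 to 12.3%) and 23 of 3470 (0.663%), 22 of the latter among the 1085 with at least 7287 UMIs. Of droplets with 2 or more Y-linked UMIs, 39.1% of members (19.7 to 61.5%) and 21.6% of those 1085 (14.04 to 30.8%) also had 2 or more of Xist. Thinning left few members with both. After 1 draw to 2000 UMIs no member had both, which allows a share of up to 2.22%, against 0.432% of others. At 1000 UMIs the shares were 2.22% (3 members) and 0.115%, and at 4000 UMIs, where 4 members were too shallow, 5.34% (7 members) and 1.44%. The intervals overlapped within 7287 to 11807 UMIs, and the size of any difference rests on few droplets.

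The same rule picked droplets in the later libraries and none in the earliest. No droplet met it of 1981 at E13.5, which allows a share of up to 0.151%, or of 3571 at E15.5 (up to 0.0840%). At E17.5, 39 of 8350 did (0.467%, 0.332 to 0.638%). The newborn share of 3.74% was 8.02-fold that value. Adult cTEC gave 13 of 507 (2.56%, 1.37 to 4.34%) and 24 of 535 (4.49%, 2.90 to 6.601%), and both intervals overlapped the newborn one. Adult mTEC gave 1.26% of 1586 and 1.57% of 5615. With each droplet thinned to 2000 UMIs and 2 or more rule UMIs asked for, a setting chosen after the data were seen, the order held for newborn (3.05%), E17.5 (0.351%) and mTEC (1.13 and 0.947%), and the adult cTEC shares were 4.08 and 3.83%. Droplets too shallow to thin were left out, 66 and 13 of adult cTEC, 89 at E17.5, 15 at E15.5, 3 at E13.5, 123 of the second adult mTEC library and none of the newborn.

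**Figure D5:**
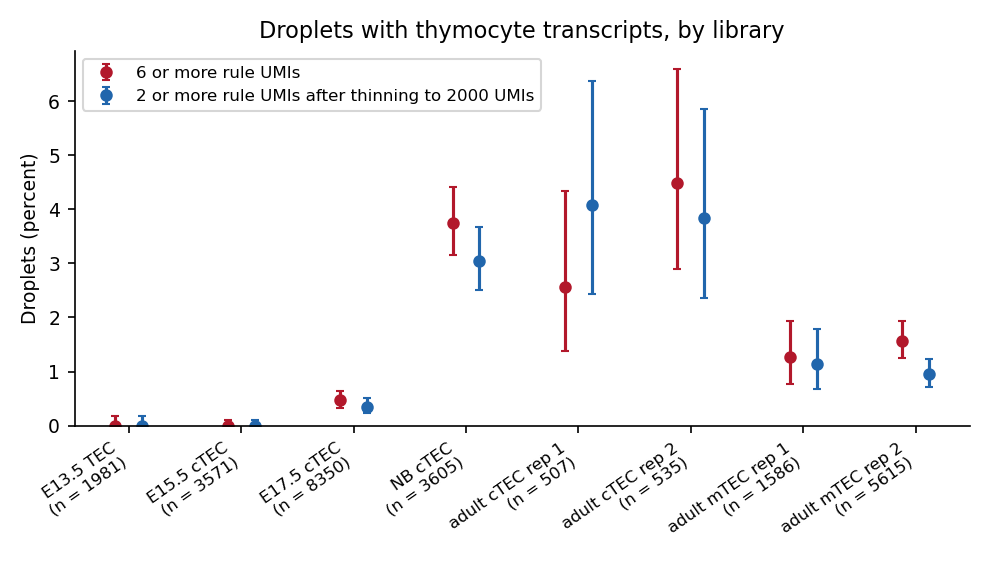
Percent of droplets with 6 or more rule UMIs (red) and with 2 or more after thinning to 2000 UMIs (blue) in the 8 libraries, with exact 95% intervals for counting error. The newborn library, at 3.74 and 3.05%, lies above E17.5 and within the intervals of the adult cTEC libraries.

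Cortical UMIs in the droplets that met the rule differed between libraries. A Psmb11 or Prss16 UMI was found in 39 of 39 at E17.5, 8 of 13 and 23 of 24 in adult cTEC, and 7 of 20 and 26 of 88 in adult mTEC. Among droplets that did not meet the rule the shares were 99.9% at E17.5, 66.2 and 78.9% in adult cTEC, and 24.97 and 29.5% in adult mTEC. In adult mTEC, where the cortical level was 38.0 and 44.7 CPM in the rest, the droplets that met the rule were thus near the share of the rest. The libraries were captured as 2 sets, with E13.5, E15.5, newborn and 1 library of each adult type in the first and E17.5 and the others in the second. By the methods of the study, newborn and adult thymi were digested with Liberase and enriched on Percoll, while embryonic thymi were freed with trypsin and not enriched. Age, capture set and preparation cannot be told apart between E17.5 and newborn. Of the 135 newborn barcodes, 3 also occurred in another library, as did 103 of the 3470 others.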

How the data were processed

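The authors sorted thymic epithelial cells, made Chromium v2 libraries and deposited raw UMI counts per gene and called cell (Cell Ranger 2.0.1 with STAR 2.5.1b, bcl2fastq 2.17 and mm10, per the submitters' processing notes, and 3.0.1 in the matrix headers of 3 libraries). No normalization had been applied to the deposited counts. The newborn matrix held 3629 droplets and 27998 genes. The limits of the study (5% mt- UMIs, 5000 genes) removed 24, of which 10 had 6 or more rule UMIs, 6 of them over the gene limit and 4 over the mitochondrial limit.

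Counts were summed over members and others, scaled to a total of 1000000 UMIs (CPM) and compared as log2(CPM + 10) over genes with 50 or more UMIs. A gene was called at 2-fold. A pseudocount understates the change of low genes. Shares have exact Clopper-Pearson intervals and ratios of sums exact binomial intervals at 95%, for counting error only. The limit that a count of 0 allows is 3 counts of the total, a 1-sided bound below the exact interval. Droplets were thinned by 1 seeded draw to 2000 UMIs. With 1 library no test across droplets was run. Genes were named from 23 lists, and by size as the 15 highest and 10 lowest outside rule, ribosomal, mt- and sex-linked genes, with 5 in each direction for the members of low epithelial content. The members and lists were chosen with earlier results of these data known. Of the list genes, 8 were not matched and 3 with 2 rows were summed in list totals. Gene positions came from GENCODE vM21 by Ensembl identifier. The code was tested on simulated data. Python 3.11.15, numpy 2.4.6, scipy 1.17.1, pandas 2.3.3 and matplotlib 3.10.9 were used. Some genes of the lists are not reported here.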

Additional observations from a re-analysis of the deposited data

How the results depend on the processing

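No paired analysis was possible because the droplets come from 1 library. Moving the limit to 3 or 10 UMIs gave 4.69% and 2.19% of droplets (169 and 79), and leaving out Cd8a and Cd8b1 or Rag1 and Dntt gave 2.996% and 3.13%. Thinning to 2000 UMIs with a limit of 2 gave 3.05%. The cortical CPM ratio of 1.15 became 1.18 at 3 UMIs, 1.02 (0.992 to 1.06) at 10 UMIs and 1.09 against other droplets of at least 7287 UMIs, and the thinned share with a cortical UMI became 92.4% at 10 UMIs and 99.2% at a depth of 4000 UMIs. The 136 higher genes became 308 and 48 with pseudocounts of 1 and 50 CPM and 76 with a minimum of 200 UMIs, and 110 of them were also called against other droplets of at least 7287 UMIs. The 5 lower genes became 362 and 0 with those pseudocounts, 2 and 25 at limits of 3 and 10 UMIs, and 8 against other droplets of at least 7287 UMIs. Per total UMIs the log2 ratios within epithelium became 0.46 for Ccl25, 0.50 for Tbata, -0.30 for Cxcl12 and -0.62 for Epcam. Against other droplets of at least 7287 UMIs, chosen for these ratios after the data were seen, they became 0.28 for Ccl25 and 0.34 for Tbata. With both groups held to 7287 to 11807 UMIs, also chosen after, the values were 0.28, 0.27, -0.31 for Cxcl12 and -0.52 for Epcam. Members exceeded others by 5.95 percentage points in droplets of both sexes, and by 1.33 against other droplets of at least 7287 UMIs. Thinned, the difference was -0.43 points at 2000 UMIs, 2.11 at 1000 and 3.91 at 4000, from 0, 3 and 7 members. The value at 2000 UMIs rests on 0 members in 1 draw. Its interval (-0.43 to 2.26 points) holds the value at 1000 UMIs, so no change of direction with depth can be read. Of 61 values under other settings, 30 lay within the counting interval of the main value or, for counts of genes, within 1.5 times it.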
